A study of Mus musculus with 8 samples.

Results

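Zfp genes carry the mouse nomenclature for zinc finger proteins, and most of them encode transcription factors with tandem C2H2 fingers, short loops folded around a zinc ion that read DNA bases. Many also carry a KRAB domain, which recruits the co-repressor TRIM28 and, through it, the histone methyltransferase SETDB1, heterochromatin protein and DNA methyltransferases to retrotransposons and imprinted loci. Such genes often lie in tandem clusters that arose by duplication. The promoters of Zfp genes usually belong to CpG islands, and some bodies of KRAB zinc finger genes are themselves packed in heterochromatin.

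Methylation of these genes came from RRBS, reduced representation bisulfite sequencing, in which a restriction enzyme selects CpG-rich fragments for conversion and reading. The cells were nephron progenitors, the Six2-expressing cells from which the nephrons of the kidney form, at stage E17.5. They came from heterozygous Tg(Six2-EGFP/cre) embryos, the offspring of transgenic males and wild-type CD1 females, and were sorted for the green fluorescence that the Six2 promoter drives, so every library shared this transgene. In the CRD group (4 libraries) the dams received 70% of the average daily intake once daily in pregnancy, and in the URD group (4 libraries) they ate without restriction. How many litters went into each library is not stated in the labels, so the p-values reflect no more than the scatter of these 8 libraries, which may be technical. No expression was measured, so the sort could be checked only through methylation: the 5 progenitor markers with a measured window, Six2, Sall1, Wt1, Pax2 and Itga8, were at 0.101% or below in both groups, but so was Foxd1, a stromal marker (0.0353% CRD, 0.0286% URD), and the check does not separate these cell types.

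Of 386 protein-coding autosomal genes whose symbol is Zfp with a number, 209 had at least 3 CpGs of at least 10 reads in every library within a gene-end window, the 1.5 kb that run from 1000 bp outside to 500 bp inside the gene. The end with more measured CpGs was used. These 209 genes stood among 12409 genes of any kind with such a window, 10152 of them protein-coding. The other 177 Zfp genes had too few measured CpGs, among them Zfp57, Zfp462, Zfp207 and Zfp746. Where RefSeq gave the strand (177 members), the chosen end was the 5′ end in 169 genes and the 3′ end in 8, namely Zfp335, Zfp628, Zfp580, Zfp78, Zfp109, Zfp94, Zfp36 and Zfp771. For 32 genes the strand was not known here. The windows held 3408 CpGs, with a median of 13 per gene and a range of 3 to 69. Another Zfp gene lay within 100 kb of 107 members, and chromosome 7 carried 51 members. Of all Zfp genes, 48.2% of the 222 clustered and 62.2% of the 164 isolated ones had enough CpGs to be members. Reads of near-identical paralogs may be exchanged between clustered genes, and this was not tested. Windows of 53 members shared CpGs with another gene, and 8 of these with another member.

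Read counts summed over all listed CpG cytosines, where a read counts once for each CpG it covers, ranged from 16045992 to 37305007 per library. The 441994 autosomal CpGs used throughout had a median of 20 to 44 reads per library. Member windows held at least 30 reads in every library, summed over their CpGs in the same way. Reads of CRD libraries 1 and 2 leaned to unmethylated CpGs, with means that fell short of their unweighted means (-2.24 and -3.28 percentage points) when CpGs were weighted by reads. The same quantity lay between -0.575 and 0.817 in the remaining libraries.

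Promoters of 177 members were found in RefSeq (GRCm38.p6, the coordinate system of mm10), as 250 bases before and 50 after the start. The dinucleotide CG occurred a median of 17 times per member promoter, from 0 to 54, against 9 times in the 147 promoters of Zfp genes that were not members and 14 times in all 20085 promoters of protein-coding genes. The measured CpG positions inside promoters numbered 79519, and all of them fell on a CG of the RefSeq sequence. Of the 102 member promoters with at least 3 measured CpGs, 98 were below 1% methylation, and a single one, that of Zfp640, was at 10% or above. The 6 promoters below span that range. They are printed 5′ to 3′ on the gene's own strand, in lower case, with the CG pairs measured in all 8 libraries in capitals. Zfp148 and Zfp335 have dense, unmethylated promoters, and Zfp640 has a sparse, partly methylated one. Those of Zfp169, Zfp760 and Zfp808 belong to the genes with the smallest p-values in the diet comparison that have a measured promoter.
Zfp148: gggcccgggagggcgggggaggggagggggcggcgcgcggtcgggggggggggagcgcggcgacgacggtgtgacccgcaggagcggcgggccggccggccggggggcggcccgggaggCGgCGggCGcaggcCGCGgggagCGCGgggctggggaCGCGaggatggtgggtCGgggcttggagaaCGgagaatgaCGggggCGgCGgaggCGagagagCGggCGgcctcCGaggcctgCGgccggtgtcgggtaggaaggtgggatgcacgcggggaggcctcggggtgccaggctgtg
Zfp335: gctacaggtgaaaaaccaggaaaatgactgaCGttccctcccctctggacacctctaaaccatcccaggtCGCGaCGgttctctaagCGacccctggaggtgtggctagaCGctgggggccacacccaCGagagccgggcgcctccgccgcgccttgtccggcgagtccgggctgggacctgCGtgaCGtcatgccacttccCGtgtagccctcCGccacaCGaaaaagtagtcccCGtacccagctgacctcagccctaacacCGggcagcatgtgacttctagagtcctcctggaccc
Zfp640: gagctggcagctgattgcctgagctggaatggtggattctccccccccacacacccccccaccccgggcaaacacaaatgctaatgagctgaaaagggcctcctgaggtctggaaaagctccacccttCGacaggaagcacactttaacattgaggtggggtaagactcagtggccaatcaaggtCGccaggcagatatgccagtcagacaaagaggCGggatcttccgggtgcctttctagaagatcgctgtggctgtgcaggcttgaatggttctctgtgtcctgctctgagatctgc
Zfp169: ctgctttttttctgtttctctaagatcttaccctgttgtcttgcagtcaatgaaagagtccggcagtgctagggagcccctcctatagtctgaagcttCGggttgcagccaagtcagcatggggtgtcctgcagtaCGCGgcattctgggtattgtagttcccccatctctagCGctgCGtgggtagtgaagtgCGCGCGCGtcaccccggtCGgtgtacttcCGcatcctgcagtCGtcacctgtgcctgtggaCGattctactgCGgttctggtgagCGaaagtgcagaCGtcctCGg
Zfp760: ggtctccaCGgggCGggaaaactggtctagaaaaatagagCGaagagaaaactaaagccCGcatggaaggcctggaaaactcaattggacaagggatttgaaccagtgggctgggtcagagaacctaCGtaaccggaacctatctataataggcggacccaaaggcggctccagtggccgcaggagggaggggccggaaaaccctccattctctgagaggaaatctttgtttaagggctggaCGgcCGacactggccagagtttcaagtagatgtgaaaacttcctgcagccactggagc
Zfp808: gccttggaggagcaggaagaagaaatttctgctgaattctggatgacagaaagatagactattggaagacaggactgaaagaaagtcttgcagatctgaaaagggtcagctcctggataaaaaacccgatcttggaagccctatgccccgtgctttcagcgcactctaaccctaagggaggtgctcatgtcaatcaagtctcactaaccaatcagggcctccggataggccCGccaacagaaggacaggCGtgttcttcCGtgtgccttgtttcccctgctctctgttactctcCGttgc
The Zfp148 promoter (chr16:33381052-33381351, plus strand) held 44 CG pairs, and none of its 19 measured CpGs had a methylated read. Its gene-end window overlaps this promoter in part and holds 16 CpGs, with 1872 reads in CRD and 2160 in URD libraries, summed over CpGs. A count of 0 there allows a level of up to 0.160% in CRD and 0.139% in URD libraries (3 reads of the group total, counting error only). This limit treats the CpGs of a read as independent, and a limit by fragments would be higher. Zfp148 encodes a regulator that binds GC-rich elements. The Zfp335 promoter (chr2:164911701-164912000, minus strand) stood at 0.0689% ± 0.138 in CRD and 0.0811% ± 0.0943 in URD libraries (SD, n = 4 each, as in every ± value of this text). The Zfp640 promoter (chr13:66680754-66681053, minus strand) had only 6 CG pairs, and its 3 measured CpGs averaged 14.4% ± 5.49 in CRD and 12.5% ± 2.85 in URD libraries. This level came from 1 CpG, 121 bp upstream of the gene, at 35.8% ± 13.2 in CRD and 31.6% ± 6.87 in URD libraries, while the other two CpGs were below 1%.

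Most of the measured Zfp gene ends were almost unmethylated in both diet groups. This does not extend to the 177 Zfp genes without enough measured CpGs. The mean over the 209 windows was 2.45% ± 0.256 in CRD and 2.61% ± 0.129 in URD libraries, and the median member stood at 0.0619%. A level below 1% was found in 182 members (87.1%), and no methylated read at all in 28. For comparison, the 9943 other protein-coding genes averaged 3.15% ± 0.0739 in CRD and 3.21% ± 0.0625 in URD libraries, with a median of 0.0706% and 86.7% below 1%. The gap of -0.647 points between the means was -0.0131 points between medians (taken over genes within each library and then averaged), and it turned to 0.110 points where at least 5 CpGs per window were required. The 107 clustered members averaged 1.91% ± 0.205 in CRD and 2.19% ± 0.140 in URD libraries, and the 102 isolated ones 3.01% ± 0.323 in CRD and 3.06% ± 0.128 in URD libraries. This gap of -0.985 points turned positive between such medians, with at least 5 or at least 20 reads per CpG, and with windows of 500 bp to both sides.

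Of 14 members listed for a well-known role, 9 were below 1% (64.3%, against 87.1% of all members). The list is short and was chosen with earlier results known, so the shares do not test an effect of role. Zfp36 and Zfp598 were between 1 and 10%, and Zfp335, Zfp42 and Zfp703 were among the most methylated windows. The windows of Zfp36 and Zfp335 lay at 3′ ends and those of Zfp598 and Zfp42 at 5′ ends, while the end of Zfp703 was not known. The window of Zfp445, which protects imprints together with Zfp57, had 0.0487% ± 0.0975 in CRD and 0.0376% ± 0.0752 in URD libraries over 19 CpGs. Zfp568, which silences a placental promoter of Igf2, had no methylated read in CRD libraries and 0.0851% ± 0.120 in URD libraries over 30 CpGs. Zfp809, which directs silencing of retroviruses through their primer binding site, was at 0% in CRD and 0.0381% ± 0.0762 in URD libraries. Several developmental regulators were also below 1%. Zfp281, a factor of embryonic stem cells, was at 0% in CRD and 0.0446% ± 0.0893 in URD libraries. Zfp423 and Zfp521 encode many-fingered cofactors of EBF proteins. Zfp423 had 0.0809% ± 0.104 in CRD and 0.274% ± 0.149 in URD libraries, and Zfp521 had 0.0487% ± 0.0975 in CRD and none in URD libraries. The window of Zfp503, a regulator of striatal development, had 0.132% ± 0.105 in CRD and 0.0730% ± 0.0584 in URD libraries.

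Not every Zfp symbol stands for a DNA-binding factor. Zfp36 encodes tristetraprolin, a CCCH protein that destabilises AU-rich mRNAs, and its window, here at the 3′ end, had 1.34% ± 0.283 in CRD and 1.09% ± 0.197 in URD libraries. Zfp598 encodes the ubiquitin ligase that senses collided ribosomes, with 0.960% ± 0.306 in CRD and 1.71% ± 0.654 in URD libraries. Zfp91 encodes a ubiquitin ligase with zinc fingers and had 0.0625% ± 0.125 in CRD and 0.0548% ± 0.110 in URD libraries.

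A level of 10% or more was found in 12 member windows, just inside this limit Zfp169 and Zfp580, and 9 were at 20% or more. Zfp335, a nuclear protein of neural development, had the highest level, 90.4% ± 3.01 in CRD and 90.7% ± 1.57 in URD libraries. All 10 CpGs of its window lay 828 to 984 bp beyond the 3′ end, where the window shares CpGs with the gene model Gm46775, and the promoter printed above was unmethylated. Zfp109 was similar, with 89.9% ± 5.34 in CRD and 84.2% ± 5.37 in URD libraries at 4 CpGs near its 3′ end, and 0.208% ± 0.417 in CRD and 0% in URD libraries in its promoter. The 8 windows known to lie at 3′ ends averaged 27.8% ± 1.22 in CRD and 28.3% ± 0.988 in URD libraries, and the 169 at 5′ ends 1.39% ± 0.201 in CRD and 1.60% ± 0.140 in URD libraries. Other protein-coding genes showed the same order, with 20.3% ± 0.321 in CRD and 20.5% ± 0.215 in URD libraries at 465 windows of 3′ ends, and 2.01% ± 0.0535 in CRD and 2.06% ± 0.0508 in URD libraries at 7432 windows of 5′ ends.

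**Figure D1:**
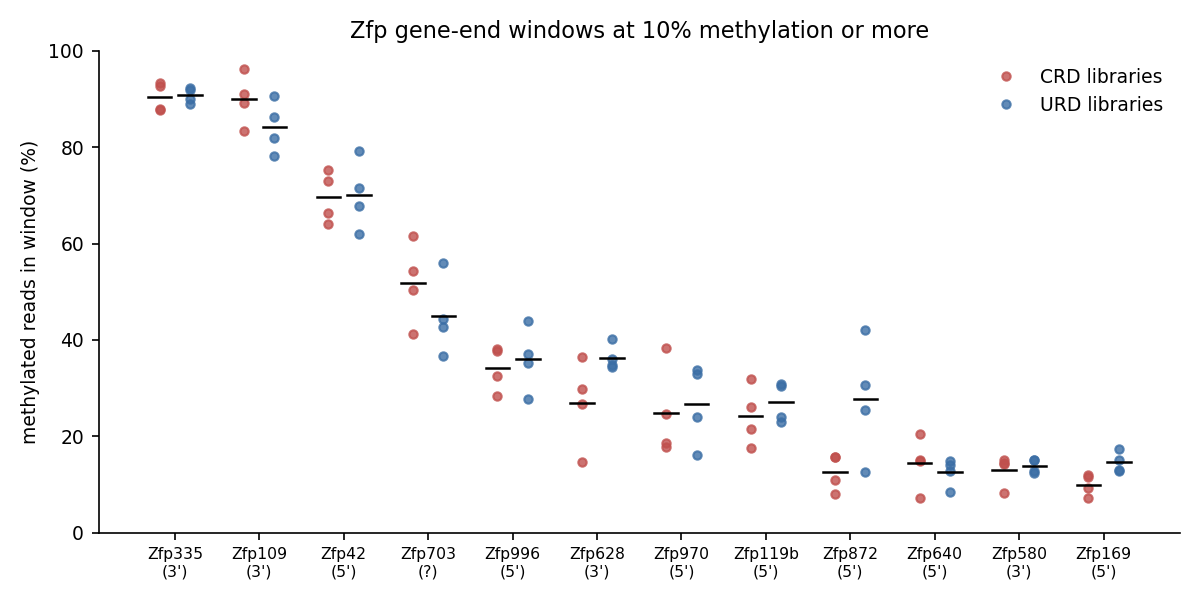
Methylated reads in percent (y axis) of the 12 Zfp gene-end windows with a mean of 10% or more, each with its 4 CRD libraries left of its 4 URD libraries. Points are libraries, black bars are group means, and the end used is given under each symbol (? where the strand was not known). Zfp335 and Zfp109 stand near 90% in both groups, and the groups overlap in every gene but Zfp169.

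Among the windows at 5′ ends, Zfp42 had the highest level. It encodes Rex1, a marker of pluripotent stem cells that differentiated cells silence. Its window (chr8:43295067-43307009 for the gene) had 72.9%, 64.0%, 75.3% and 66.3% in CRD libraries 1 to 4, against 62.0%, 79.2%, 67.7% and 71.4% in URD libraries 1 to 4. The groups overlapped throughout, with means of 69.6% ± 5.36 in CRD and 70.1% ± 7.20 in URD libraries. The 5 CpGs behind these values lay 406 to 528 bp upstream of the gene, each on 10 to 24 reads per library. None of the 11 CG pairs of the RefSeq promoter was measured.

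The other windows at 5′ ends with 20% or more were those of Zfp996 (34.1% ± 4.60 CRD, 36.0% ± 6.69 URD), Zfp970 (24.8% ± 9.51 CRD, 26.7% ± 8.30 URD), Zfp119b (24.3% ± 6.19 CRD, 27.1% ± 4.13 URD) and Zfp872 (12.6% ± 3.82 CRD, 27.7% ± 12.2 URD, a mean of 20.2%). In Zfp996 and Zfp970 the CpGs lay 381 to 484 bp inside the gene, and in Zfp119b, whose window shares CpGs with Ebi3, 730 to 791 bp outside. None of these 4 genes had a measured CpG in the RefSeq promoter.

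Several windows mixed CpGs of low and high methylation. This was so in 5 members (Zfp628, Zfp703, Zfp996, Zfp169 and Zfp119b), each with at least 1 CpG below 20% and at least 1 at 50% or above. Zfp996 met this rule only narrowly, as its lowest CpG was at 19.8%, and none of its CpGs was unmethylated. Zfp169 was the clearest case. Of its 29 CpGs, 24 were below 1%, among them all 17 measured in the promoter (chr13:48513361-48513660, minus strand), which stood at 0.0484% ± 0.0967 in CRD and 0.0999% ± 0.0707 in URD libraries. The remaining 5, in a window shared with the gene model A830005F24Rik, lay 930 to 999 bp upstream of the gene and had means of 85.0 to 96.6% in CRD and 79.3 to 98.8% in URD libraries. In Zfp703, which encodes a transcriptional corepressor, 4 CpGs at 936 to 977 bp outside the gene had 73.0 to 89.0% in CRD and 76.9 to 90.5% in URD libraries, while the other 4 were below 20%. The window at the opposite end of Zfp703 (6 CpGs) had 0.201% ± 0.402 in CRD and 0% in URD libraries. Which of its ends is the 5′ end was not known here. In Zfp628 the 6 CpGs inside the 3′ end had 42.1 to 74.9% in CRD and 46.8 to 88.6% in URD libraries, and the 6 beyond it had means of at most 2.01% over the 8 libraries.

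**Figure D2:**
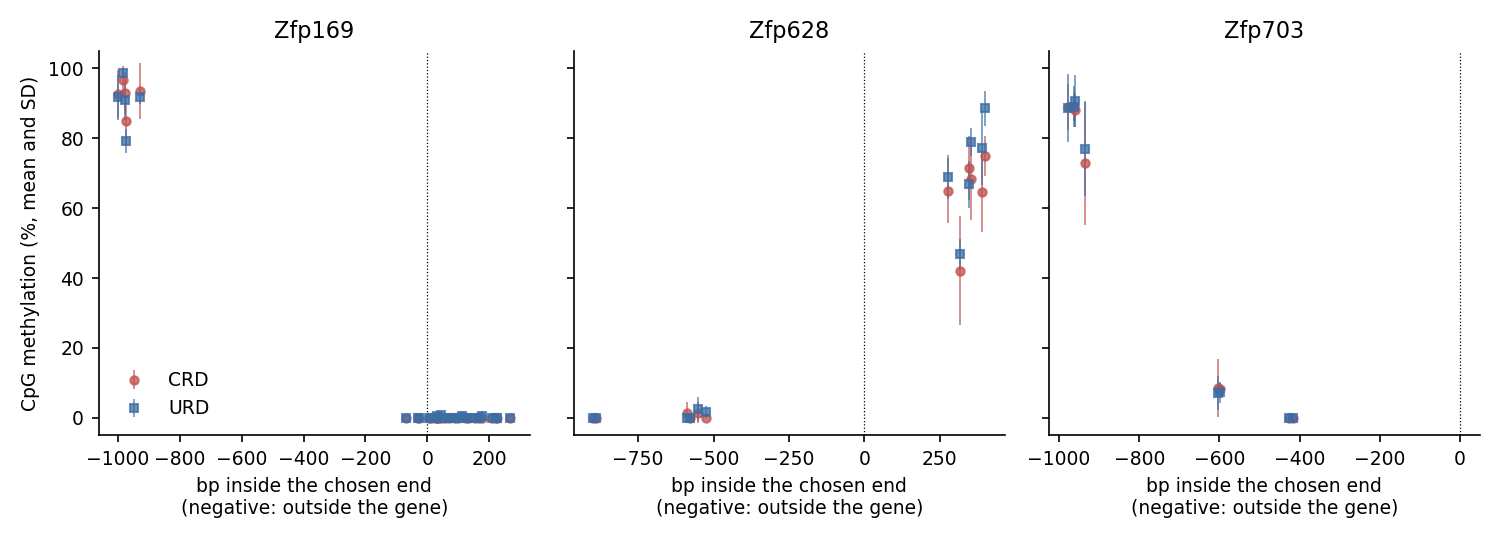
Methylation in percent (y axis) of each measured CpG of Zfp169, Zfp628 and Zfp703 against its distance in bp from the chosen gene end (x axis, negative outside the gene). Circles are means of 4 CRD libraries, squares are means of 4 URD libraries, and lines are SD. Each window joins a stretch near 0% with a stretch of methylated CpGs, and at Zfp169 the 5 methylated CpGs lie 930 to 999 bp outside in both groups.

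Levels were higher further inside the gene, in both diet groups. From the chosen end inwards, mean CpG methylation of members was 1.51% ± 0.118 in CRD and 1.67% ± 0.0882 in URD libraries in the first 500 bp (174 genes). It was 29.6% ± 0.740 in CRD and 29.1% ± 0.935 in URD libraries between 1 and 2 kb (22 genes), and 56.4% ± 1.15 in CRD and 55.9% ± 0.321 in URD libraries between 2 and 5 kb (23 genes). Other protein-coding genes were higher in the first 500 bp, with 2.28% ± 0.0560 in CRD and 2.32% ± 0.0454 in URD libraries (8419 genes). Further inside they were lower, with 12.6% ± 0.251 in CRD and 12.8% ± 0.214 in URD libraries between 1 and 2 kb (1760 genes). Between 2 and 5 kb they had 39.1% ± 0.224 in CRD and 39.2% ± 0.316 in URD libraries (1239 genes). The median gene stood far below these means between 1 and 2 kb, at 1.63% in members and 0.392% in other genes. Between 2 and 5 kb the median gene stood at 70.6% in members and 24.1% in other genes.

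Over the whole stretch of 1 to 5 kb inside, the 40 members measured there averaged 47.3% ± 0.895 in CRD and 46.8% ± 0.622 in URD libraries, against 24.4% ± 0.271 in CRD and 24.6% ± 0.249 in URD libraries for 2540 other genes. The difference between the gene sets was 21.6 to 24.2 points in the 8 libraries. It is a description over genes, not a test, and it was not present at higher coverage: with at least 20 reads per CpG it was -0.877 points over 12 members and 740 other genes, and with at least 5 reads 19.8 points over 58 and 3968. Beyond 20 kb members had 57.3% ± 0.210 in CRD and 57.9% ± 0.705 in URD libraries, near the 59.4% ± 0.396 in CRD and 59.5% ± 0.338 in URD libraries of other genes.

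**Figure D3:**
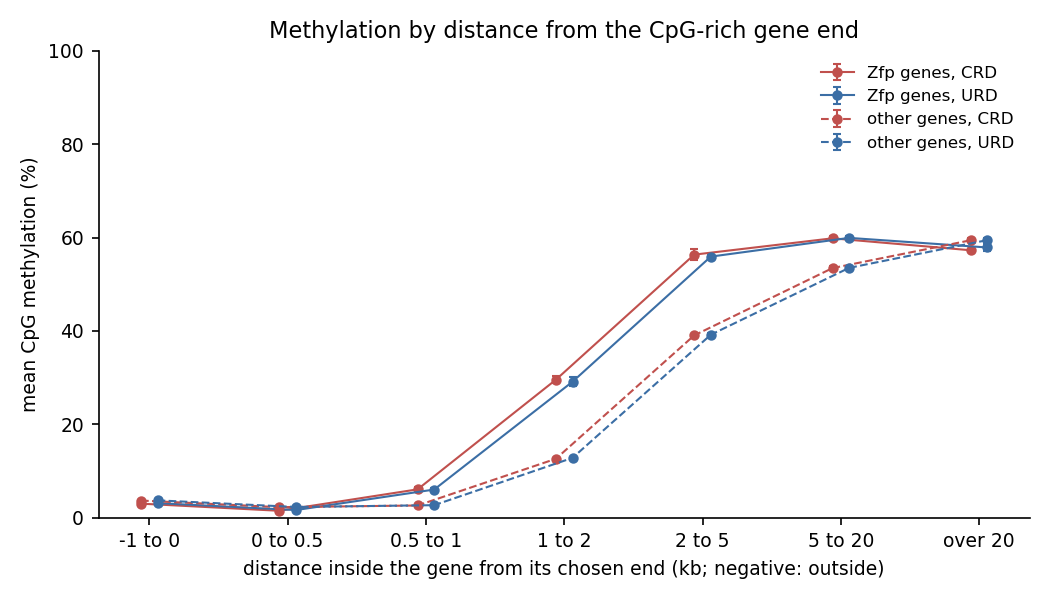
Mean CpG methylation in percent (y axis) by distance inside the gene from its chosen end in kb (x axis, negative outside), for Zfp genes (solid) and other protein-coding genes (dashed). Points are means of 4 CRD (red) or 4 URD (blue) libraries with SD. At 1 to 2 kb the mean of Zfp genes is 29.6% in CRD and 29.1% in URD libraries, above the 12.6% and 12.8% of other genes. The median gene there is at 1.63% among Zfp genes and 0.392% among other genes.

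Gene bodies, counted as CpGs between the gene's start and end but outside both end windows, spanned the full range. The 98 members with at least 3 such CpGs averaged 33.4% ± 0.375 in CRD and 34.0% ± 0.376 in URD libraries, against 25.1% ± 0.819 in CRD and 26.1% ± 0.316 in URD libraries for 5838 other protein-coding genes. A body at 80% or more was found in 22 members (22.4%), against 10.9% of the other genes, and 33 member bodies were below 1%. As with the stretch inside the end, the mean gap of 8.08 points turned to -0.535 points with at least 20 reads per CpG, where 28 members remained. The 36 clustered members had bodies at 42.3% ± 0.781 in CRD and 42.9% ± 0.306 in URD libraries, and the 62 isolated ones at 28.3% ± 0.837 in CRD and 28.8% ± 0.546 in URD libraries. Whether this gap between clustered and isolated bodies holds at other coverage minimums was not tested.

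Named genes stood at both extremes. Zfp809 combined an unmethylated window with a body at 92.5% ± 2.85 in CRD and 91.5% ± 2.30 in URD libraries (5 CpGs). Zfp521 combined the same with 89.3% ± 1.49 in CRD and 91.0% ± 0.599 in URD libraries (24 CpGs), and Zfp598 had 73.3% ± 2.50 in CRD and 76.4% ± 4.81 in URD libraries (5 CpGs). By contrast the body of Zfp503 was unmethylated over 106 CpGs, with 0.0723% ± 0.0418 in CRD and 0.0566% ± 0.0427 in URD libraries. The bodies of Zfp335 (36 CpGs), Zfp445 (12 CpGs) and Zfp91 (10 CpGs) were also below 1% in both groups. Zfp423, with 119 body CpGs, had 11.7% ± 0.887 in CRD and 14.4% ± 0.977 in URD libraries, Zfp148 4.62% ± 0.335 in CRD and 4.39% ± 0.735 in URD libraries, and Zfp703 1.63% ± 0.252 in CRD and 2.06% ± 0.718 in URD libraries.

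The comparison of diets asks whether maternal calorie restriction altered the methylation of these genes. No Zfp window passed the test. Of the 181 windows with both methylated and unmethylated reads, 0 had an adjusted p under 0.05 in a logistic quasi-likelihood model with Benjamini-Hochberg adjustment over all windows, against a background of 10 of 11142 (0.0898%). At an unadjusted p under 0.05 there were 14 (7.73%), close to the background of 6.95%. Of these 14, 10 were lower in CRD (background 3.83% of windows) and 4 higher (3.11%). The median difference was -0.0191 percentage points, against -0.00601 for all windows, and 58.6% of members were lower, against 52.2% of all windows. Limma on M-values called 0 member windows and 0 of all windows (0.0%), with 14 members at an unadjusted p under 0.05 (background 6.84%). The quasi-likelihood test of edgeR called 1 member window, that of Zfp808, and 14 of all 11142 windows (0.126%).

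**Figure D4:**
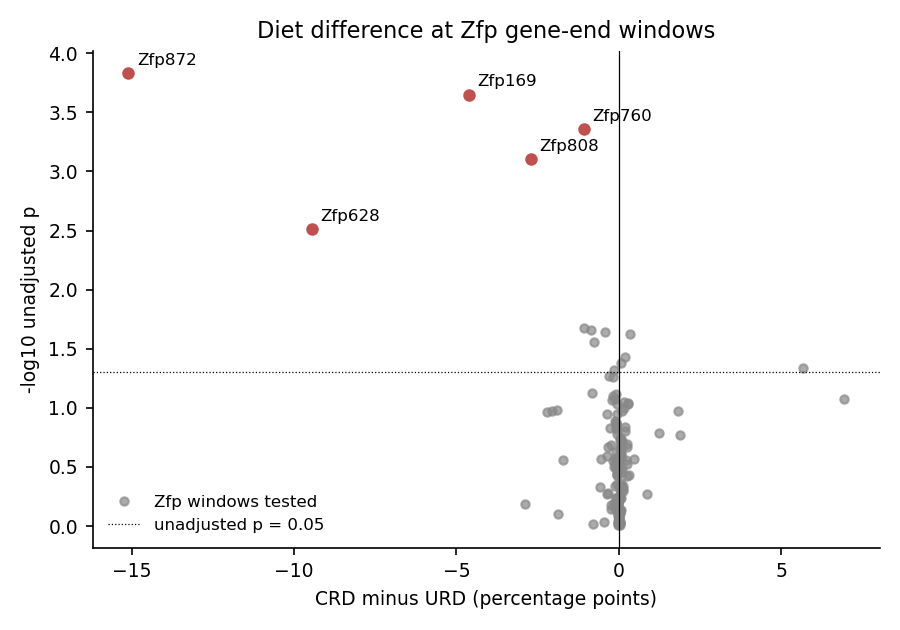
Difference between CRD and URD libraries in percentage points (x axis) against -log10 of the unadjusted p of the logistic quasi-likelihood model (y axis) for the 181 tested Zfp windows. The dotted line marks an unadjusted threshold of 0.05. The 5 windows of smallest p, Zfp872, Zfp169, Zfp760, Zfp808 and Zfp628, are named and all lie left of 0, and none passed after adjustment over all windows.

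Zfp872 had the smallest p of all member windows. It lies on chromosome 9 (chr9:22188166-22202123), 23544 bp from another Zfp gene. Its window had 11.0%, 8.00%, 15.7% and 15.8% in CRD libraries 1 to 4, against 30.7%, 42.1%, 12.7% and 25.4% in URD libraries 1 to 4. Only URD library 3 fell within the range of the CRD libraries, and the difference of -15.1 points had an adjusted p of 0.110 in the logistic quasi-likelihood model. Over the 20 alternatives tried, that adjusted p ranged from 0.0179 to 0.853.

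The window of Zfp872 held 4 CpGs within 74 bp, 289 to 362 bp inside the 5′ end, so that single fragments can carry all of them and they are not independent. The CpG at 310 bp (chr9:22188476) was the only one of 1407 tested CpGs in Zfp genes to pass, against a background of 0.0997% of 191637 CpGs (0.0261% for lower ones). It had 0%, 9.52%, 12% and 9.52% in CRD libraries 1 to 4, against 24.4%, 42.9%, 15% and 27.7% in URD libraries 1 to 4. All CRD libraries lay below all URD libraries, and the level fell to 7.76% ± 5.30 in CRD, against 27.5% ± 11.6 in URD libraries, a difference of -19.7 points (adjusted p = 0.0162, logistic quasi-likelihood model, 20 to 63 reads per library). The CpGs at 348 and 362 bp had 25.4% ± 12.5 in CRD and 41.4% ± 19.8 in URD libraries, and 11.3% ± 6.37 in CRD and 31.6% ± 15.3 in URD libraries, without passing (adjusted p = 0.622 and 0.131 in the same model). The CpG at 362 bp passed without CRD library 3 or URD library 3 (adjusted p = 0.0252 and 0.0441 in that model). The first CpG was at 0% in 7 of the 8 libraries.

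The call at 310 bp of Zfp872 did not hold under limma (adjusted p = 0.637), edgeR (0.0872), an unmoderated dispersion (0.730), or the logistic quasi-likelihood model without CRD library 1 (0.356), URD library 4 (0.0534) or CRD libraries 1 and 2 (0.673). Its difference lay between -23.9 and -14.6 points in the 8 fits that left out 1 library.

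**Figure D5:**
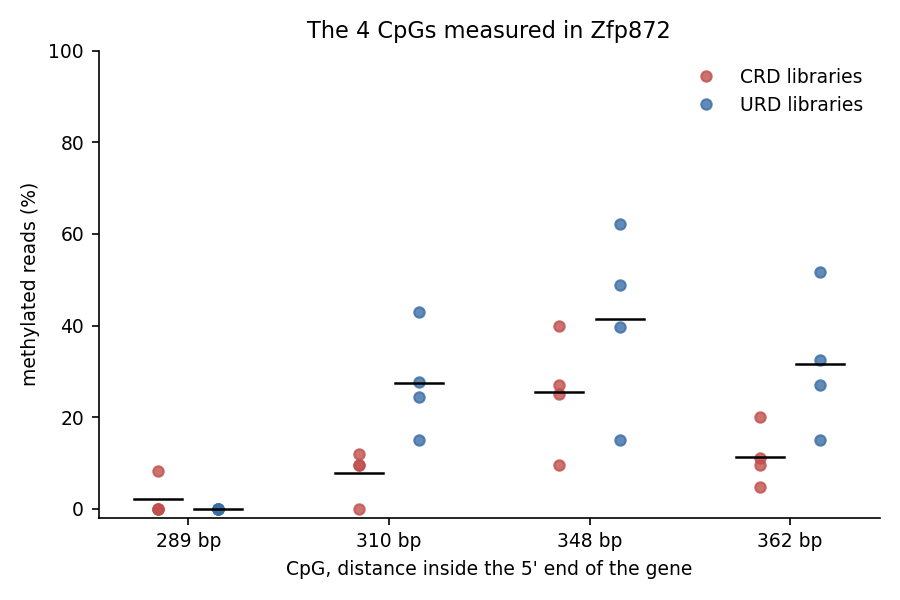
Methylated reads in percent (y axis) at the 4 measured CpGs of Zfp872, ordered by distance in bp inside the 5′ end (x axis), with 4 CRD libraries left of 4 URD libraries at each and black bars for group means. At 310 bp the CRD libraries reach 12% at most and the URD libraries start at 15%, whereas the groups overlap at the other 3 CpGs.

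Zfp169 came next by p. Its window had 11.9%, 7.14%, 9.34% and 11.5% in CRD libraries 1 to 4, against 12.8%, 17.3%, 13.1% and 15.2% in URD libraries 1 to 4. The groups did not overlap, and the difference was -4.61 points (adjusted p = 0.139, logistic quasi-likelihood model). These values pool reads over the window, and the share of reads on the 5 methylated outer CpGs differed too, with a mean of 10.8% (7.94 to 13.1%) in CRD and 16.0% (14.2 to 18.6%) in URD libraries. When every CpG counted equally, the window had 15.9% ± 0.632 in CRD and 15.7% ± 0.322 in URD libraries, a difference of 0.219 points (exact two-sided permutation p = 0.686).

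Read shares also moved with the values of Zfp628 and Zfp703. The Zfp628 window had 14.7%, 26.7%, 36.4% and 29.8% in CRD libraries 1 to 4, against 34.9%, 34.3%, 40.2% and 36.1% in URD libraries 1 to 4, a difference of -9.45 points (adjusted p = 0.427, logistic quasi-likelihood model). Without CRD library 1 it was -5.36 points. Its methylated CpGs took 18.1 to 44.5% of reads in CRD and 40.1 to 44.5% in URD libraries, and with equal weights the difference was -3.52 points (exact two-sided permutation p = 0.0571; smallest possible 0.0286). At Zfp703 the pooled level was higher in CRD (51.9% ± 8.44) than in URD libraries (44.9% ± 8.08), with 59.1% of CRD and 49.9% of URD reads on its methylated CpGs. With equal weights Zfp703 had 44.5% ± 3.87 in CRD and 44.9% ± 1.89 in URD libraries, a difference of -0.478 points. Among all members, 10 changed sign between the weightings. Equal weights gave -13.5 points at Zfp872 (exact two-sided permutation p = 0.0857), -1.18 at Zfp760, -2.70 at Zfp808 and 5.64 at Zfp109. The pooled differences of these 4 were -15.1, -1.08, -2.70 and 5.69 points in the same order. Beyond such reweighting, the part of read shares in other results was not tested.

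Low-level windows came next. The window of Zfp760 (chr17:21707430-21725636) had 0%, 0.298%, 0% and 0% in CRD libraries 1 to 4, against 1.45%, 1.90%, 1.07% and 0.200% in URD libraries 1 to 4. Here 3 of the URD libraries were above every CRD library, and the difference was -1.08 points (adjusted p = 0.195, logistic quasi-likelihood model). In its promoter (chr17:21707491-21707790, plus strand) the 7 measured CpGs had no methylated read in CRD libraries and 1.47% ± 1.04 in URD libraries. Zfp808 (chr13:62129857-62173938) had 0.708%, 0%, 0% and 0% in CRD libraries 1 to 4, against 5.47%, 3.54%, 2.21% and 0.286% in URD libraries 1 to 4. Again 3 URD libraries exceeded every CRD library (difference -2.70 points, adjusted p = 0.218, logistic quasi-likelihood model), and its promoter (chr13:62129640-62129939, plus strand) had 0.118% ± 0.236 in CRD and 3.32% ± 2.47 in URD libraries at 4 CpGs. The edgeR quasi-likelihood test called the Zfp808 window (adjusted p = 0.0245).

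Higher windows were fewer. Zfp263, Zfp575 and Zfp426 had no methylated read in any URD library and means of 0.351% ± 0.702, 0.201% ± 0.299 and 0.0841% ± 0.0600 in CRD libraries. The counts of 0 in URD libraries allow levels of up to 0.304%, 0.150% and 0.0748% in the same order of genes, close to the CRD means. Again the CpGs of a read are treated as independent, and limits by fragments would be higher. Zfp109 was 5.69 points higher in CRD libraries and Zfp703 6.94 points, and none of these 5 passed (adjusted p = 0.679 for each, logistic quasi-likelihood model). Single libraries moved these values: Zfp109 was at 3.58 points without CRD library 1 and 3.70 without URD library 1, and Zfp575 at 0.0575 points without CRD library 3. Zfp703 was at 3.71 points without CRD library 3, 4.19 without URD library 1, 10.5 without CRD library 2 and 10.6 without URD library 4. Groups without overlap were found in 3 lower windows (1.66% of those tested, background 0.996%), Zfp169, Zfp598 and Zfp709, and in 1 higher one (0.552%, background 0.655%), Zfp639. With equally weighted CpGs the groups overlapped at Zfp169 and Zfp598.

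Within whole genes, 0 of 323 tested 1 kb tiles passed (background 0.0177%), with 20 at an unadjusted p under 0.05 (6.19%, background 6.32%) and a smallest adjusted p of 0.303 in the logistic quasi-likelihood model, at Zfp872. Limma called 0 of these tiles (background 0.0%), with 23 at an unadjusted p under 0.05 (background 6.41%). The quasi-likelihood test of edgeR called 3, those of Zfp872, Zfp760 and Zfp808, against 110 of all 33897 tiles (0.325%). Away from the end windows, the lower tile of smallest p lay in Zfp282 (chr6:47904001-47905000, 17 CpGs). It had 51.1%, 46.9%, 52.5% and 47.2% in CRD libraries 1 to 4, against 56.5%, 58.2%, 54.2% and 53.7% in URD libraries 1 to 4, without overlap, and a difference of -6.24 points (adjusted p = 0.632, logistic quasi-likelihood model). Zfp653 followed, with 38.2% ± 4.56 in CRD and 45.1% ± 3.90 in URD libraries. The 5 higher tiles of smallest p were small shifts in highly methylated sequence or a few reads in unmethylated sequence: Zfp865 had 95.9% ± 0.852 in CRD and 92.9% ± 0.909 in URD libraries, and Zfp317 96.8% ± 1.87 in CRD and 93.4% ± 2.65 in URD libraries.

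Of the single CpGs, the one next in p after those of Zfp872 lay in the body of Zfp64 (chr2:168926025, 29562 bp inside). It had 32.0%, 54.5%, 15.4% and 10.0% in CRD libraries 1 to 4, against 0%, 4.76%, 7.69% and 0% in URD libraries 1 to 4, higher in all CRD libraries on 10 to 25 reads each (difference 24.9 points, adjusted p = 0.131, logistic quasi-likelihood model). It passed without CRD library 3 or 4 (adjusted p = 0.0335 and 0.0346 in the same model), and the difference was 16.0 points without CRD library 2. The nearby CpG at chr2:168926022 had 100% in CRD and 93.2% ± 6.43 in URD libraries. The 1 kb tile that holds both (chr2:168926001-168927000, 15 CpGs) was lower in CRD, with 89.6% ± 2.71 in CRD and 92.3% ± 1.08 in URD libraries. The 64 body CpGs of Zfp64 together had 26.8% ± 5.13 in CRD and 28.5% ± 2.64 in URD libraries. At an unadjusted p under 0.05 there were 81 of 1407 CpGs (5.76%, background 5.62%), 43 lower (background 2.73%) and 38 higher (2.89%).

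At the other gene end, 7 members had enough CpGs, and 0 of them passed in the logistic quasi-likelihood model (background 0.0%), with 1 at an unadjusted p under 0.05 (Zfp503, 0.282% ± 0.188 in CRD and 0.842% ± 0.464 in URD libraries), where the background was 6.97%. Among 24 listed genes that work with KRAB zinc finger proteins or in heterochromatin, 16 had a window and all 16 were below 1% in both groups. None of the 13 tested passed in the logistic quasi-likelihood model, in limma or in edgeR (1 at an unadjusted p under 0.05 in limma and 1 in edgeR, with a background of 6.84% in limma and 4.59% in edgeR). The logistic model had 2 of 13 at an unadjusted p under 0.05, where the background was 6.95%, both lower in CRD: Smarcad1, a chromatin remodeller, had 0.0206% in CRD and 0.184% in URD libraries, and Ehmt2, a histone H3 methyltransferase, 0% in CRD and 0.0780% in URD libraries. Setdb1 was at 0.112% in CRD and 0.118% in URD libraries, and Dnmt3b at 0.169% in CRD and 0.172% in URD libraries. Trim28 had no measured window.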

How the data were processed

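Per the submitters' processing notes, the authors used Trim Galore 0.3.3, cutadapt, FastQC, Bismark 0.13.1 and methylKit with build mm10, while settings and the order of steps are not given in the sources used here. Each deposited file lists CpG cytosines with a read count and a percent methylated. The product of both gave the methylated reads (within 0.0488 of a whole number for up to 1000 reads), the strands of a CpG were added, and autosomal CpGs covered 10 times or more in each of the 8 libraries were kept. A level is methylated over total reads of a window, tile or CpG in a library. A group value is the mean of 4 library levels, and differences are CRD minus URD.

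Each unit was fitted by a logistic quasi-likelihood model with 1 term for diet (Python 3.11.15, numpy 2.4.6, scipy 1.17.1). Its F test took a Pearson dispersion shrunk towards that of all units, with a floor of 1, and p-values were adjusted by Benjamini-Hochberg over all units tested (threshold 0.05). Units without methylated or without unmethylated reads were not tested. On simulated counts, with changes placed only in units of intermediate level, the model recovered most changed windows and tiles and fewer changed CpGs. It called somewhat more unchanged ones than its threshold allows. Recovery of changes in windows below 1%, which held 87.1% of members, was not simulated. For single values the exact two-sided permutation test used all 70 ways to assign the diets. Alternatives included limma 3.58.1 (on log2 ratios of methylated to unmethylated reads, 1 added to both, the M-values), edgeR 4.0.16, other coverage minimums, windows and weights, and leaving out each library. Of these, the alternatives for the level 1 to 5 kb inside the gene and the equal weighting of CpGs with its permutation test were chosen after the data were seen.

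Gene positions, promoters and strands came from RefSeq tables of GRCm38.p6. Protein sequences were not used, so the members were not divided by KRAB domain or finger number. Named were all members with a called unit, the 5 windows and 5 tiles of smallest p per direction, the 10 windows of highest level, the 3 CpGs of smallest p, and a list of members of known role, while Zfp580, Zfp709 and Zfp639 were added because of their values. The members and lists were chosen with earlier results of these data known.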

Additional observations from a re-analysis of the deposited data

Results flagged for a closer look

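Among 77 groups of 4 libraries, 13 had a library far from the other 3. The rule flags about 1 in 20 groups of normally distributed values, a rate that does not hold for counts near 0. Some windows and tiles also share reads, so the groups are not independent. In 12 of the 13 flagged groups the other 3 libraries had no methylated read, so that a single library with a few methylated reads stood apart.

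Of the CRD libraries, library 1 stood apart at the windows of Zfp263 (1.40%) and Zfp808 (0.708%, and 0.377% in its tile), library 2 at the window and tile of Zfp760 (0.298% in both), and library 3 at the windows of Zfp445 (0.195%), Zfp521 (0.195%) and Zfp91 (0.250%). Of the URD libraries, library 1 stood apart at Zfp281 (0.179%), library 3 at Zfp445 (0.150%), and library 4 at Zfp809 (0.152%) and Zfp91 (0.219%). The higher level of Zfp263 in the CRD group thus came from 1 library. The mean level of member bodies was 34.0% in CRD library 3, against 33.2 to 33.3% in the other 3 CRD libraries.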

How the results depend on the processing

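Windows were called in 0 members. With at least 20 reads per CpG 1 was called (Zfp872, -18.8 points, adjusted p = 0.0179 in the logistic quasi-likelihood model), and with edgeR's quasi-likelihood test 1 (Zfp808). Leaving out 1 library gave 0 to 2 calls: Zfp169 without CRD library 1 (adjusted p = 0.0302), Zfp872 and Zfp628 without CRD library 3 (0.0374 and 0.0194), Zfp872 without URD library 3 (0.0314) and Zfp808 without URD library 4 (0.0320, all from the logistic quasi-likelihood model). Tiles went to 3 calls with edgeR and stayed at 0 in every other alternative run. The 1 called CpG became 0 with limma, edgeR, an unmoderated dispersion, or without CRD libraries 1 and 2, and 0 to 5 without 1 library. Replicate numbers did not pair the libraries (correlation of same-numbered deviations -0.0480 to 0.000837 over windows). With the replicate block 0 windows, 0 tiles and 0 CpGs were called.

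Differences reversed at Zfp575 with at least 5 reads (-2.57 points), and with equally weighted CpGs at Zfp169 (0.219) and Zfp703 (-0.478). Clustered minus isolated windows, -0.985 points, gave 1.43 with at least 5 reads, 0.321 with 20, -0.144 with 2000 bp outside and 1000 bp inside, 0.559 with 500 bp on both sides, -2.26 with at least 5 CpGs and 0.00865 between medians, here and below taken over genes within each library and then averaged. Member minus other windows, -0.647 points, gave -1.29 and -0.420 with 5 and 20 reads, -0.156 with the wider window, 0.110 with at least 5 CpGs and -0.0131 between medians. The stretch of 1 to 5 kb, 22.5 points, gave 19.8 and -0.877 with 5 and 20 reads, 19.0 with the wider window, 28.8 from the annotated start and 58.8 between medians. The gap in bodies, 8.08 points, gave 9.94 and -0.535 with 5 and 20 reads. The diet difference of member bodies, -0.549 points, gave -1.24 with 5 reads, -0.0585 with equal weights and -1.44 between medians. The cause of these shifts was not tested, and coverage minimums also change which genes are measured. At 20 to 44 reads per CpG, levels of single CpGs below a few percent were not resolved.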
